A study of Mus musculus with 75 samples.

Results

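The genes described here are 10 imprinted genes that act on growth: H19, Igf2, Dlk1, Meg3, Rian, Peg3, Plagl1, Cdkn1c, Grb10 and Mest. They were chosen by their symbols, with earlier results of these data known, and all 10 were found among the 55536 genes of the table. The values that chose them were those of their fall from 3 weeks to 5 months and of their level in tumors, so these are described below without a test.

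An imprinted gene is transcribed mainly from the copy inherited from one parent. Many such genes act on growth before birth and are turned down in the liver after birth, and some are found again in liver tumors. H19, Meg3 and Rian are long non-coding RNAs transcribed from the maternal copy. Igf2, a fetal growth factor, and Dlk1, a transmembrane protein of fetal liver cells, come from the paternal copy of the same 2 clusters, H19 with Igf2 and Dlk1 with Meg3 and Rian.

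Bulk RNA of whole liver was measured in 75 libraries of male C57Bl/6 mice, which are wild type. Mothers were given vehicle or the organotin tributyltin (TBT) in their water, at a daily dose of 0.5 mg/kg (3.07 µM), and the exposure ended at weaning, so no mouse of 5 or 10 months was being exposed. The groups were vehicle and TBT at 3 weeks (8 libraries each), high-risk TBT (10), low-risk TBT (16) and vehicle (8) at 5 months, and vehicle (6), low-risk TBT (5), uninvolved liver of high-risk TBT mice (6) and tumor of TBT mice (7) at 10 months. One vehicle library of 10 months, labelled as a tumor, entered no comparison. The labels used here do not say how risk was assigned, nor whether each uninvolved liver and tumor came from separate mice beyond the numbers in their titles.

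The 2 libraries of vehicle mouse 3 at 3 weeks were summed, leaving 7 samples. The libraries of uninvolved livers 3 and 6 differed from each other by far less than other pairs of their group and were also summed as 1 sample (liver 3+6), leaving 5. Nothing says whether mice shared a litter, so p-values measure the spread between these samples. Libraries held 2.83 to 45.4 M counts, where M is 1000000. All libraries of 3 weeks and 10 months were in sequencing batch 1. The second batch held libraries of 5 months only: 7 of the high-risk, 10 of the low-risk and 1 of the vehicle mice. Several libraries stood apart. Vehicle 9 of 5 months had the 2.83 M counts and 38206 genes with a count, and high-risk 10 had 39669 genes. Mitochondrial counts were 14.5% in high-risk 15, 11.2% in low-risk 16 of 5 months and 13.5% in 1 library of 3-week vehicle mouse 3. These libraries and the tumor-labelled vehicle are called technically deviating. The limits were under 5 M counts, over 35000 genes with a count or over 10% mitochondrial counts. TBT 4 of 3 weeks went against its label, with Xist at 348 CPM and Y-linked genes at 7.08. Low-risk 24 had 84.6 CPM of Xist with 237 CPM of Y-linked genes, and 185 CPM of Sult2a1. Over 13270 genes without the members, high-risk livers 10, 12, 13, 17 and 25, all of batch 2, correlated better with the mean 3-week vehicle than with the mean 5-month vehicle, and no other library of 5 or 10 months did. Results that turn on these libraries are given without them as well.

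Levels are counts per 1000000 (CPM) after TMM scaling. Fold changes are log2 values from edgeR's quasi-likelihood fit over all genes, and a gene is called at a Benjamini-Hochberg adjusted p under 0.05 over all genes tested. The low-count filter kept 8 of the 10 members in each comparison of a pair of groups. Igf2 and Dlk1 were too low there and are given as values. In the fit over both adult ages Dlk1 passed as well.

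H19 is a lincRNA of chromosome 7 (142575529 to 142578143, minus strand, GRCm38, 2460 exonic bases). Its exons hold the hairpin of miR-675, so the mature sequences of that microRNA are shown, as RefSeq gives them on GRCm38.p6, with the seed (bases 2 to 8) in capitals. They lie at chr7:142577112-142577133 and chr7:142577078-142577099 on the minus strand.

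miR-675-5p: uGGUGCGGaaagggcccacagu

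miR-675-3p: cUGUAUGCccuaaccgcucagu

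The seeds of the 2 arms differ. No count was assigned to the Mir675 gene in any library. Its 84 bases all lie within H19 exons, so the microRNA was not measured here apart from H19.

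Meg3, Rian and Dlk1 lie in 1 cluster on chromosome 12 (Dlk1 109452823 to 109463336, Meg3 109541001 to 109571726, Rian 109603940 to 109661716, all plus strand). They were the members that were high together in a single tumor. The RefSeq promoter windows of that cluster, 250 bases before to 50 after the start, are shown for that reason, for Meg3 that of the first of its 2 listed start sites. They are Dlk1 at chr12:109452573-109452872, Meg3 at chr12:109540746-109541045 and Rian at chr12:109603695-109603994, plus strand, GRCm38.p6, with motif matches in capitals.

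Dlk1: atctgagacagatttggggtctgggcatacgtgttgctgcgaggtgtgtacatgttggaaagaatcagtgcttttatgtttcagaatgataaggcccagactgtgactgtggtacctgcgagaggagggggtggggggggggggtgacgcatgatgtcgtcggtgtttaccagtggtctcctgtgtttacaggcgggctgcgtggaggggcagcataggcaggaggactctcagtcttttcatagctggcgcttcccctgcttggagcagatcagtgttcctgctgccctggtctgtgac

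Meg3: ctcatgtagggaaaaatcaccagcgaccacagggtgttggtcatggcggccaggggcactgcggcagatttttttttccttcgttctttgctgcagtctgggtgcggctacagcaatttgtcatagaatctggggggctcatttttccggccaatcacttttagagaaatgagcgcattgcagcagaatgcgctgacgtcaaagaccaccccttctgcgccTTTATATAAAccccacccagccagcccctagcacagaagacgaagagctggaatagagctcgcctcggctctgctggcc

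Rian: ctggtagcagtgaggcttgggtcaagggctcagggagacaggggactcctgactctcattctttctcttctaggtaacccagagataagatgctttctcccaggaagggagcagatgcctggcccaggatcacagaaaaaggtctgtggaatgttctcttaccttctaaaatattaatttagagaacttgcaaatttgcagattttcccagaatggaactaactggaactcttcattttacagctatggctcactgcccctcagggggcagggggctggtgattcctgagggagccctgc

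The window of Peg3, the member that was lowest in tumors relative to 3 weeks, is shown for contrast (chr7:6730370-6730669, minus strand).

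Peg3: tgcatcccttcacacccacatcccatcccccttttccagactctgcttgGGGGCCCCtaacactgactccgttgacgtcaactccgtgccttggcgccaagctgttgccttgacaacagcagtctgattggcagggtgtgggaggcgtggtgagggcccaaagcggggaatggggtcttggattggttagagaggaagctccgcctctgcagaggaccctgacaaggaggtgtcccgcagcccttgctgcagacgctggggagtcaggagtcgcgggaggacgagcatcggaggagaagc

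Both strands were searched for TATAAA (the TATA box), GGGGCCCC (a palindrome that the Plagl1 protein is known to bind) and AAGATGGC (the YY1 site). Of all 32851 promoter windows of the same length, 13.6% held the first, 1.08% the second and 2.75% the third. The Meg3 window shown held TATAAA in both orientations, overlapping in TTTATATAAA. The Peg3 window held GGGGCCCC once. The Dlk1 and Rian windows held none of the 3 motifs, nor did the window of the second Meg3 start site (chr12:109545148-109545447, not shown, with 1 CG pair). The Dlk1 and Rian windows held 9 and 0 CG pairs, the shown Meg3 and Peg3 windows 13 each, and the median window 7. A match describes these letters and no binding. Windows were in the table for 8 of the 10 members.

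H19 reached the highest level of any member and had the widest range, but its median was not the highest in adult vehicles. In vehicle livers at 3 weeks it had 81.3 CPM (lowest), 252 (median) and 756 (highest) in 7 samples. In the 8 vehicles of 5 months it had 0.455, 1.67 and 20.1 CPM, and in the 6 vehicles of 10 months 0.120, 0.449 and 0.561. The 3 ages of vehicle did not overlap between 3 weeks and either adult age. Against the batch-1 vehicles of 5 months the 3-week median was 262-fold higher. The 2 highest 5-month vehicles were livers 6 (20.1 CPM) and 8 (7.02). Without liver 6 the described log2 change from 3 weeks to 5 months was -7.94 in place of -6.29.

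**Figure D1:**
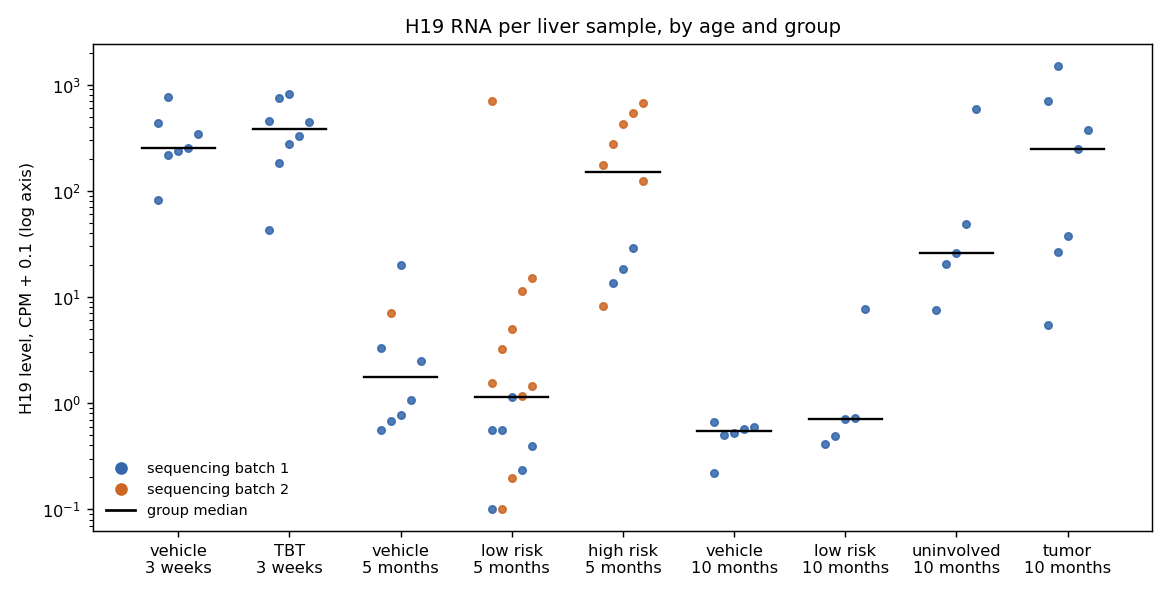
H19 level of each liver sample on a log axis (CPM + 0.1), by group in order of age, with the group median as a line and color for the sequencing batch. Samples of 3 weeks lie between 42.9 and 809 CPM, adult vehicles at or below 20.1, and high-risk, uninvolved and tumor samples spread from 5.30 to 1491.

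The other members that fell were Grb10, Mest, Peg3, Cdkn1c and Plagl1. Grb10, an adaptor that dampens insulin and IGF receptor signalling, fell from a median of 39.9 CPM in 3-week vehicles to 6.76 in the batch-1 vehicles of 5 months. Mest, an enzyme of the hydrolase family, had 14.7 and 2.97 CPM. Peg3, a zinc finger protein, had 39.6 and 11.02 CPM. No vehicle of 5 months reached the lowest 3-week vehicle for H19, Peg3, Plagl1, Cdkn1c, Grb10 or Mest. Plagl1, a zinc finger factor that acts on other imprinted genes, had 5.53 and 1.73 CPM, and Cdkn1c, a cyclin-dependent kinase inhibitor, 3.96 and 1.11.

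Of the 8 members tested, these 6 had 3-week and 5-month vehicles that did not overlap, whereas 5.05% of all genes were lower without overlap. This contrast chose the members, so the share is a description. Their log2 changes were -6.29 (H19), -2.20 (Grb10), -2.16 (Mest), -1.97 (Peg3), -1.60 (Cdkn1c) and -1.46 (Plagl1), and the median of the 8 was -1.78 beside 0.03 over all genes. Meg3 (0.08) and Rian (-0.47) overlapped between these ages. Both rest on few counts: Meg3 had 0.584 to 2.09 CPM in 3-week vehicles and 0 to 0.869 in 5-month vehicles other than vehicle 9, the shallow library, which had 5.596. Without vehicle 9 the changes were -1.51 for Meg3 and -1.04 for Rian, and the batch-1 medians with it were 2.23-fold and 2.51-fold lower than those of 3 weeks.

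Igf2 did not show such a fall and was close to 0 already at 3 weeks (0 to 0.514 CPM, 3-week vehicles). Dlk1 had 0 to 0.931 CPM there. A decline of Igf2 could not be measured in these libraries. Igf2 shares 3596 of its 5723 exonic bases, on the same strand, with the readthrough gene Gm49394, which has 0 counts in all libraries. The treatment of reads in shared exons is not given in the sources used here, so the level of Igf2 may be too low in every library. Per kilobase of exon, the median 3-week vehicle had 103 RPKM of H19, 4.38 of Grb10, 3.71 of Mest, 2.97 of Peg3 and 0.0343 of Igf2.

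From 5 to 10 months, 2 of the 8 members were lower in vehicles (batch 1 only, 7 against 6), beside 4.08% of all genes. H19 had a log2 change of -3.39 (SE 0.90, adjusted p 0.033) and Peg3 of -0.71 (SE 0.16, adjusted p 0.017). At 10 months Peg3 had 5.98 to 7.14 CPM in 6 vehicles, and at 5 months 6.67 to 12.8 in the 7 of batch 1. The H19 call was close to the threshold and not stable. It was lost on leaving out any of the 6 vehicles of 10 months (adjusted p 0.061 to 0.078), 5-month vehicle 4 (0.052) or 5-month vehicle 6 (0.084, with a log2 change of -1.90). Without a filter on low counts no member was called in this comparison.

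**Figure D2:**
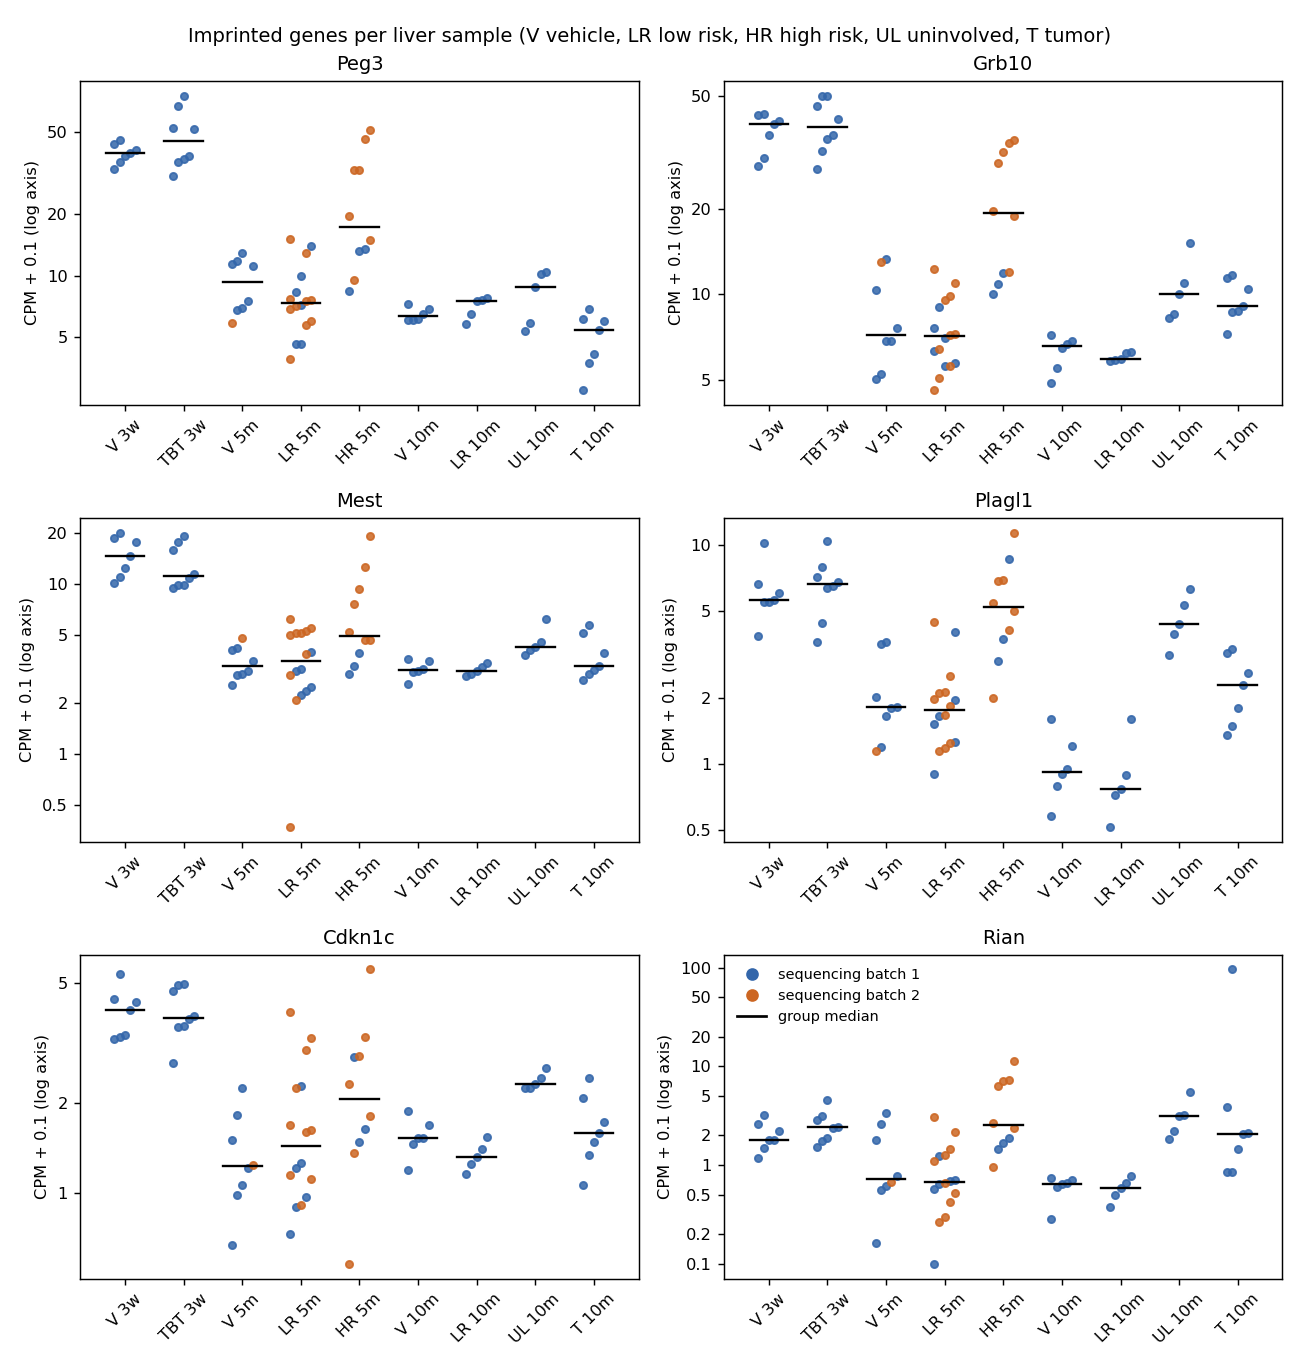
Levels of Peg3, Grb10, Mest, Plagl1, Cdkn1c and Rian in each liver sample (CPM + 0.1, log axis), by group, with medians as lines and color for the sequencing batch. Peg3 is 33.1 to 45.6 CPM in 3-week vehicles and 2.67 to 6.76 in tumors, whereas Rian has a single tumor at 95.7.

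At 3 weeks, TBT and vehicle livers overlapped for all 10 members. H19 had 42.9 CPM (lowest), 384 (median) and 809 (highest) in 8 TBT livers. No member was called (0 of 8, beside 0% of all genes), none had an unadjusted p under 0.05, and DESeq2 called none. Without TBT 4 no member was called either. The widest change was that of Rian at 0.36 (SE 0.27, adjusted p 0.999).

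At 5 months, 7 of the 8 members were higher in high-risk than in low-risk livers, beside 20.3% of all genes called higher. The exception was Cdkn1c (0.45, SE 0.30, adjusted p 0.245). The median log2 change of the 8 was 1.56 beside -0.01 over all genes. Without the 5 high-risk livers nearer to 3-week vehicles, 3 of the 8 were called, Grb10 (0.84), Meg3 and Rian. In batch 1 alone, 3 against 6 livers, H19 alone was called. The 20.3% belongs to the full fit, and the share of all genes called in these smaller fits is not given here.

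H19 had 8.16, 148.7 and 665 CPM (lowest, median, highest) in 10 high-risk livers and 0, 1.05 and 696 in 16 low-risk livers. The highest value of all low-risk livers was that of liver 24, the library with Xist beside Y-linked counts, and the next was 15.1 CPM. The log2 change of H19 was 2.97 (SE 1.04, adjusted p 0.024), and 6.08 (adjusted p 4.28e-07) without low-risk 24. In batch 1 the 3 high-risk livers had 13.5, 18.2 and 28.9 CPM and the 6 low-risk livers at most 1.04, with a change of 5.64 (adjusted p 0.012). In batch 2, which holds low-risk 24, it was 2.11 (adjusted p 0.299). The call was also lost without technically deviating libraries (adjusted p 0.073) and without the batch term (0.112).

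Peg3 had 8.34, 17.1 and 51.3 CPM in high-risk livers and 3.82, 7.27 and 14.9 in low-risk livers. High-risk livers 12, 13, 17 and 25 had 32.6, 46.5, 51.3 and 32.7 CPM, near the 33.1 to 45.6 of 3-week vehicles, and are among the 5 livers nearer to that age. Its log2 change was 1.53 (SE 0.25, adjusted p 1.36e-05), and 0.67 (adjusted p 0.070) without those 5. Grb10 gave 1.44 (SE 0.19, adjusted p 6.96e-07). It had 9.93, 19.3 and 34.9 CPM in high-risk livers and 4.50, 7.03 and 12.2 in low-risk livers, and 6 of 10 high-risk livers exceeded the whole low-risk group.

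Plagl1 (1.59, SE 0.29, adjusted p 4.45e-05) had 1.91 to 11.4 CPM in high-risk and 0.798 to 4.35 in low-risk livers. Mest (0.90, SE 0.26, adjusted p 0.0068) had 2.86 to 19.01 and 0.273 to 6.14 CPM, and low-risk 24 was the lowest. Rian (2.19, SE 0.50, adjusted p 7.02e-04) had 0.849 to 11.1 and 0 to 2.95 CPM. Meg3 (2.10, SE 0.61, adjusted p 0.0066) had 0.457 to 8.85 and 0 to 1.26 CPM. For every called member the high-risk livers overlapped with the low-risk livers.

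Individual high-risk livers were high for different members. Livers 1 and 22 had the most Meg3 (6.04 and 8.85 CPM), and liver 22 had the most Mest (19.01), Cdkn1c (5.46) and Dlk1 (6.57) but the least H19 (8.16). Liver 13 had the most H19 (665), and liver 17 the most Peg3 and Plagl1 (11.4). Of the 6 members that fell after 3 weeks, livers 13 and 17 had 4 at or above the lowest 3-week vehicle, and livers 10, 12, 22 and 25 had 3. Livers 4 and 9 had none.

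**Figure D3:**
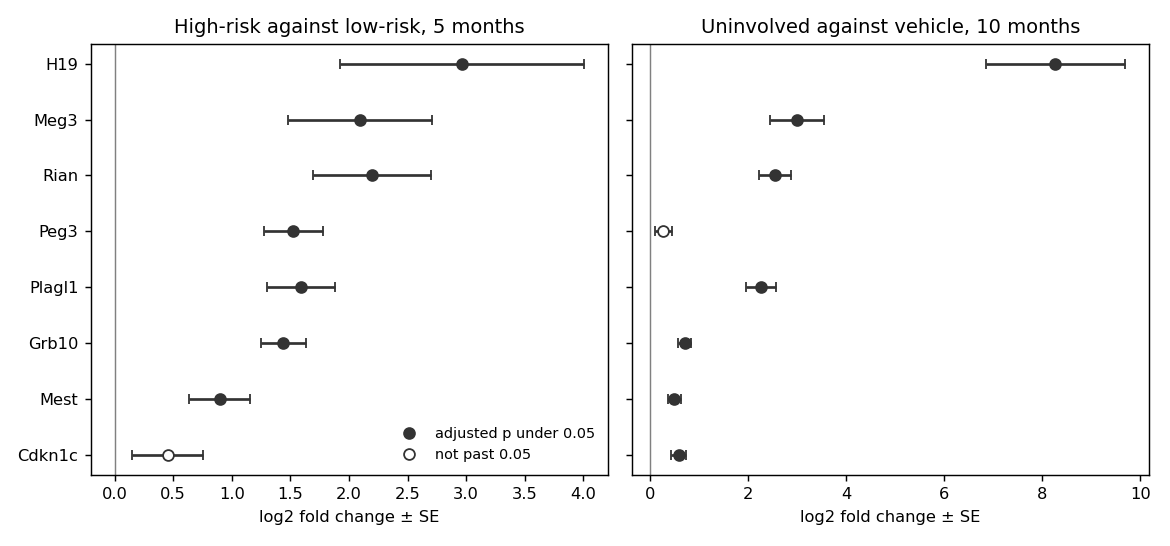
Log2 fold changes of the 8 tested members (points) with their standard errors (bars) in high-risk against low-risk livers of 5 months and in uninvolved against vehicle livers of 10 months; filled points passed an adjusted p of 0.05. Cdkn1c is the open point on the left (0.45) and Peg3 the open point on the right (0.27).

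Compared with vehicles of 5 months, high-risk livers had 3 of 8 members higher, Plagl1 (1.42, SE 0.40, adjusted p 0.015), Grb10 (0.92, SE 0.26, adjusted p 0.014) and Peg3 (1.11, SE 0.35, adjusted p 0.028), beside 8.47% of all genes. H19 gave 1.76 (SE 1.39, adjusted p 0.408). Low-risk livers share this fit, and without low-risk 24 H19 was called as well (2.95, SE 0.96, adjusted p 0.033). The median H19 of high-risk livers and vehicles was 18.2 and 0.963 CPM in batch 1, and 272.7 against the 7.02 of vehicle 8 in batch 2. The vehicles were not uniform: livers 6, 8 and 4 had 20.1, 7.02 and 3.24 CPM. Without vehicle 6 the change was 3.47 (SE 1.56, adjusted p 0.129). None of the calls of Plagl1, Grb10 and Peg3 held without the 5 high-risk livers nearer to 3-week vehicles or in batch 1 alone, and Plagl1 lost its call without high-risk 15 (adjusted p 0.082). Only 1 vehicle was in batch 2. Low-risk livers and vehicles, which share this fit, gave 0 called members of 8, beside 0% of all genes. Grb10 had an unadjusted p under 0.05 there, the only member to do so (-0.52, SE 0.23, adjusted p 0.717), and DESeq2 called none.

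At 10 months, low-risk livers and vehicles overlapped for every member. No member of 8 was called, beside 0% of all genes, none had an unadjusted p under 0.05, and DESeq2 called none. H19 was 0.312, 0.387, 0.609, 0.624 and 7.51 CPM in the 5 low-risk livers, with the high value in liver 8.

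Uninvolved livers of high-risk mice had 7 of the 8 members higher than vehicles, beside 31.2% of all genes called higher, and the same count higher than low-risk livers, beside 27.7%. These comparisons share the uninvolved livers. The exception in both was Peg3 (0.27, SE 0.17, adjusted p 0.178 against vehicles). All 5 uninvolved samples lay above every vehicle for the 7 called members. The share of all genes that lay apart in this way is not given here, so this only describes the values. The median change of the 8 was 1.48 beside 0.06 over all genes.

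H19 was 7.40, 20.1, 25.8, 48.3 and 586 CPM in uninvolved livers 7, 1, 5, 12 and 3+6, and at most 0.561 in vehicles. Its log2 change was 8.27 (SE 1.42, adjusted p 2.64e-04). The mean of 138 ± 251.3 CPM (SD, n = 5) was carried by liver 3+6, and without it the change was 5.88 (adjusted p 1.23e-04). With the tumor-labelled library added to the vehicles the change was 1.26 (adjusted p 0.567), and Meg3 and Cdkn1c also lost their calls. Against low-risk livers H19 rose by 6.14 (SE 1.32, adjusted p 0.0017), and uninvolved liver 7 overlapped with low-risk 8. Without liver 3+6 this was 3.75, and without low-risk 8 it was 8.04.

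Plagl1 was 3.04 to 6.20 CPM in uninvolved livers and 0.479 to 1.51 in vehicles (2.26, SE 0.30, adjusted p 8.47e-06). Its level in 4 of 5 uninvolved livers was at or above the lowest 3-week vehicle (3.77). Rian (2.54, SE 0.32, adjusted p 4.97e-06) was 1.73 to 5.38 against 0.182 to 0.647 CPM, and Meg3 (2.99, SE 0.56, adjusted p 2.42e-04) 1.08 to 3.73 against 0 to 0.561. All 5 uninvolved livers were within or above the 3-week range of Meg3 and Rian. The lowest 3-week vehicle was also reached by 4 of 8 vehicles of 5 months for Meg3 and by 3 for Rian. No vehicle of 10 months reached it. Grb10 (0.70, SE 0.14), Cdkn1c (0.58, SE 0.16) and Mest (0.48, SE 0.13) rose less, and no uninvolved liver reached the lowest 3-week vehicle for these.

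The risk difference was compared between ages in 1 fit (uninvolved against low-risk at 10 months, minus high-risk against low-risk at 5 months). No member of 9 tested was called, beside 0.353% of all genes, and DESeq2 called none. Dlk1 was among these 9 (-2.38, SE 1.42, adjusted p 0.547). At unadjusted p under 0.05 there were 2, Peg3 (-1.35, SE 0.41, adjusted p 0.140) and Grb10 (-0.65, SE 0.31, adjusted p 0.414). Peg3 passed at 5 months and not at 10 months, but this difference was not called.

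In tumors, which chose the members, H19 was 5.30, 26.3, 37.1, 248, 373, 697 and 1491 CPM in tumors 7, 1, 3, 11, 5, 6 and 12. The median of 248 CPM was 98.2% of the 3-week vehicle median, but the tumors ranged over a wider span than the 3-week livers. Tumors 5, 6, 11 and 12 were at or above the lowest 3-week vehicle, and the other 3 were below it. Every tumor lay above every vehicle of 10 months.

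The other members did not return to the 3-week level together. Peg3 had 2.67 to 6.76 CPM in tumors, a median of 13.4% of that at 3 weeks and below the median of vehicles of the same age (6.23). Mest, Grb10, Cdkn1c and Plagl1 had tumor medians of 21.8%, 22.6%, 37.3% and 39.7% of the 3-week median, and no tumor reached the lowest 3-week vehicle for any of these 4 or for Peg3. Meg3 and Rian had medians of 84.1% and 114% of the 3-week vehicles, with 5 of 7 tumors at or above the lowest of these for each. For Meg3 that mark was also reached by 4 of 8 vehicles and 7 of 16 low-risk livers of 5 months. For Rian these counts were 3 and 5. No vehicle or low-risk liver of 10 months reached it for either gene.

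Against vehicles of 10 months, 3 of the 8 members lay higher in tumors without overlap, H19 (9.91), Rian (4.88) and Grb10 (0.61), beside 11.2% of all genes. Without tumor 6 the change of Rian was 1.80. Against low-risk livers, 2 of the 8 did, Rian and Grb10, beside 9.38%. These comparisons share the tumors and show the contrast that chose the members. Tumor and uninvolved liver did not differ without overlap for any member, beside 7% of all genes in either direction, and the median change of the 8 members was -0.19 beside -0.01 over all genes.

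A tumor and an uninvolved liver carried the same number in the label for mice 1, 3, 5, 6, 7 and 12. Uninvolved livers 3 and 6 were summed, so only the 4 mice 1, 5, 7 and 12 are compared as pairs. H19 was higher in the tumor of 3 mice, 26.3 against 20.1, 373 against 25.8 and 1491 against 48.3 CPM in mice 1, 5 and 12, and lower in mouse 7 (5.30 against 7.40). Plagl1, Cdkn1c and Meg3 were lower in the tumor of all 4 mice. Meg3 was 0.828 against 2.23, 1.58 against 2.50, 1.28 against 3.73 and 0.446 against 1.08 CPM. Beside the summed liver 3+6 (2.69 CPM), Meg3 was lower in tumor 3 (1.24) but higher in tumor 6 (24.3). Plagl1 and Cdkn1c were below liver 3+6 in both tumors, though Cdkn1c of tumor 6 was almost level (2.31 against 2.32 CPM). With 4 pairs no exact two-sided test could go below 0.125. The share of all genes that were lower in all 4 tumors is not given here, so the pairs only describe the values. Peg3 was lower in 3 of the 4 tumors, and Grb10 and Mest in 2.

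**Figure D4:**
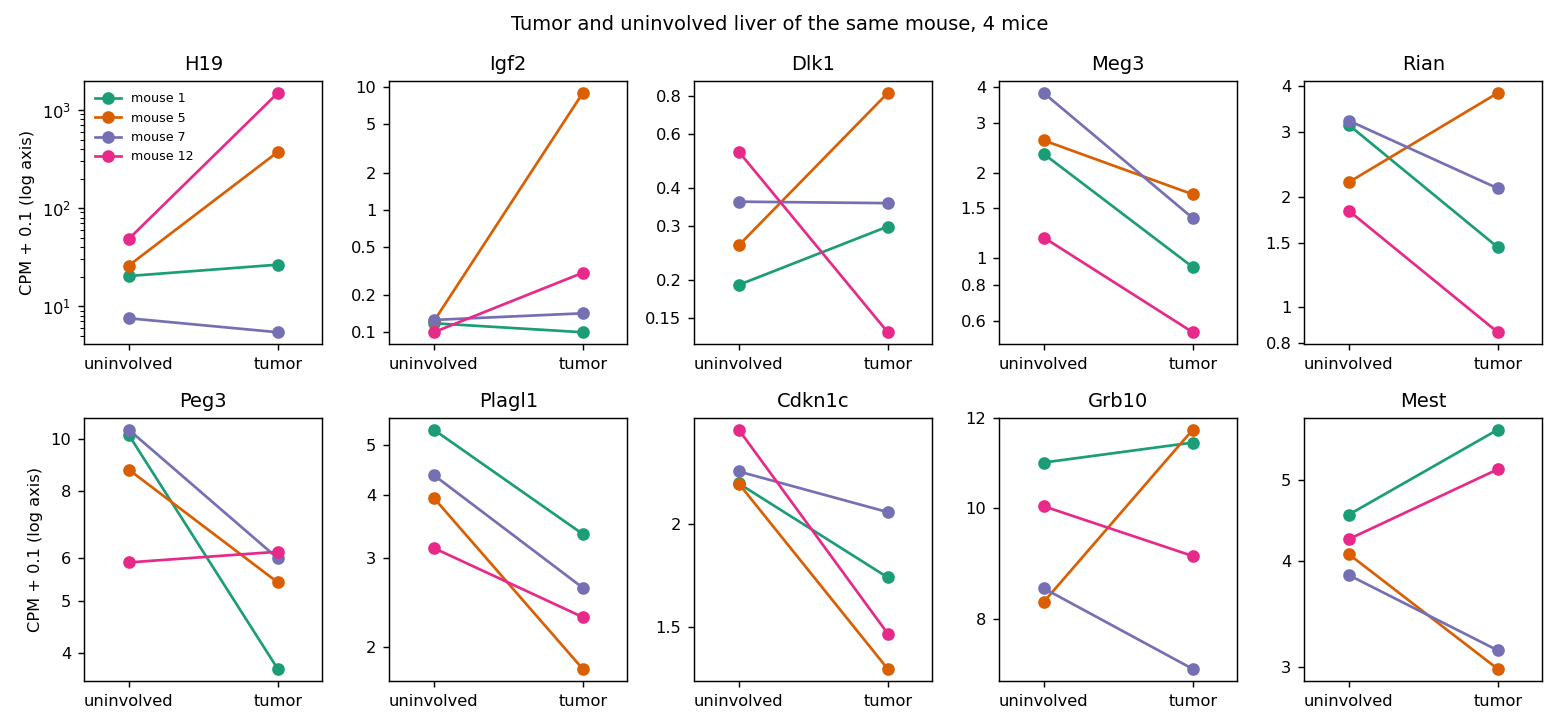
Levels of the 10 members in uninvolved liver (left) and tumor (right) of mice 1, 5, 7 and 12, with a line for each mouse. Axes are logarithmic (CPM + 0.1), with a scale of its own for each gene. Plagl1, Cdkn1c and Meg3 fall from left to right in all 4 mice, and H19 rises in mice 1, 5 and 12.

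Tumor 6 stood apart for the chromosome 12 cluster. It had 39.0 CPM of Dlk1 (1147 counts), 24.3 of Meg3 and 95.7 of Rian. The other 6 tumors had 0 to 0.720 CPM of Dlk1, 0.446 to 1.58 of Meg3 and 0.747 to 3.74 of Rian. Mirg and Rtl1, 2 further imprinted genes of the cluster, also were highest in tumor 6 (4.89 and 2.45 CPM, against at most 0.359 and 0.240 in the other tumors), whereas Dio3 at its far end was at 0.0340 CPM. In high-risk livers of 5 months Dlk1 was 0.0836 to 6.57 CPM, with the highest in livers 22, 10 and 1, and 5 of 10 lay above every low-risk liver.

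**Figure D5:**
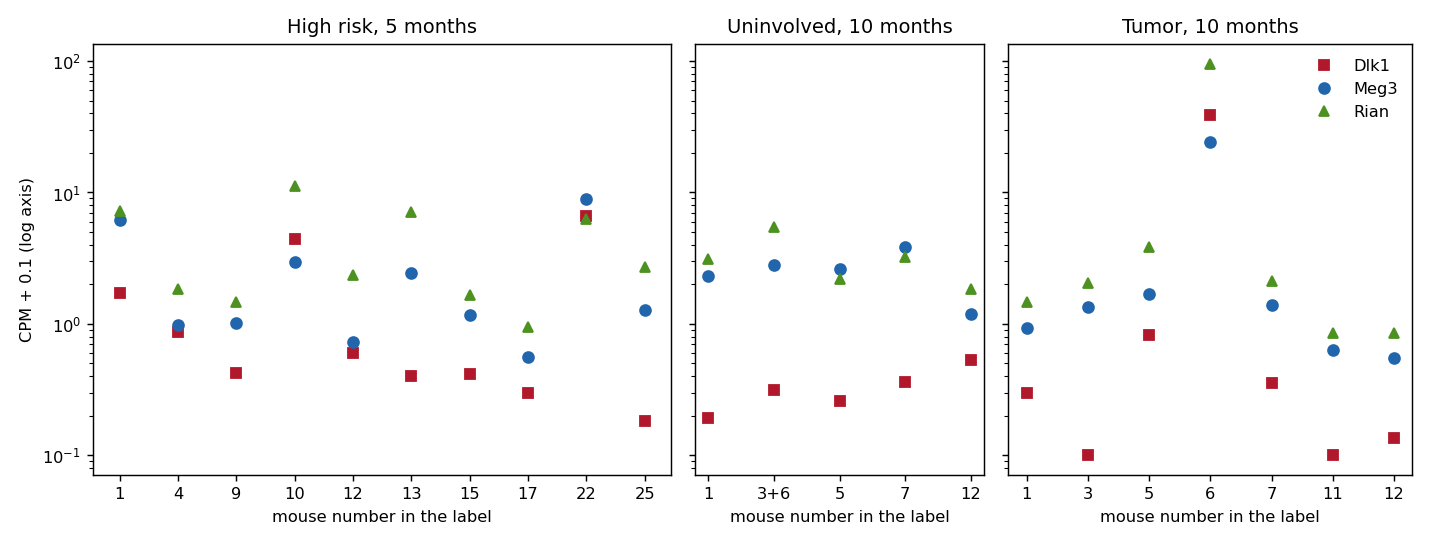
Dlk1, Meg3 and Rian in each high-risk liver of 5 months, uninvolved liver and tumor of 10 months (CPM + 0.1, log axis), by mouse number. Tumor 6 has 39.0, 24.3 and 95.7 CPM, and in the uninvolved livers Dlk1 stays at or below 0.426 CPM while Meg3 and Rian lie between 1.08 and 5.38.

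Igf2 was above 1 CPM in 5 samples of the 9 groups. They were tumor 5 (8.88 CPM, 259 counts), low-risk 24 (6.68, 49 counts), tumor 6 (4.86, 143 counts), 5-month vehicle 9 (2.37, 11 counts) and high-risk 4 (1.10, 10 counts). The 2 tumors and low-risk 24 also had 373, 697 and 696 CPM of H19, whereas tumor 12, with the most H19, had 0.206 CPM of Igf2. Igf2 was at most 0.0398 CPM in the vehicle, low-risk and uninvolved livers of 10 months.

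Levels of some markers of other cells differed between these groups, not all in the same direction. Fewer cells of a type and less RNA per cell cannot be told apart in bulk tissue. The summed level of 5 markers of proliferating cells had a median of 189 CPM in 3-week vehicles (140 to 290), 12.5 in vehicles of 5 months (4.31 to 89.1), 147 in high-risk livers (27.7 to 228), 20.1 in uninvolved livers (12.9 to 89.8), 110 in tumors (11.8 to 141) and 7.75 in vehicles of 10 months (4.10 to 16.01). All 5 were called higher in high-risk than low-risk livers and in uninvolved livers than vehicles. Among all genes tested, 20.3% were higher and 18.5% lower in the first comparison, and 31.2% and 26.5% in the second. The summed level of 8 stellate cell and fibroblast markers had medians of 876, 345, 679, 433, 457 and 260 CPM in the same groups, with ranges of 721 to 1160, 71.5 to 459, 364 to 1114, 377 to 635, 337 to 591 and 213 to 350. Of these markers 6 rose and 1 fell in high-risk against low-risk livers, and 4 rose and 1 fell in uninvolved livers against vehicles. Cholangiocyte markers (5 genes) had medians of 45.7, 42.8, 263, 158, 272 and 44.9 CPM, with ranges of 37.3 to 49.9, 22.6 to 272, 32.8 to 342, 107 to 217, 145 to 801 and 38.2 to 54.4. Of 6 endothelial markers, 1 rose and 3 fell in high-risk against low-risk livers, and 3 rose and 2 fell in uninvolved livers against vehicles. For 6 macrophage markers these counts were 2 and 1, then 1 and 3. Erythroid markers had 0 higher and 1 lower of 6, then 0 higher and 2 lower of 5. The endothelial, macrophage and erythroid markers are too few for these counts to be set apart from the shares of all genes. None of these markers was at 0 in all samples of a group, and their part in the results was not tested. The 8 hepatocyte markers had summed medians from 107400 CPM in tumors to 181700 in 3-week vehicles, and the tissue labelled liver expressed them in every group. Of the 8, 4 were lower and 1 higher in high-risk than in low-risk livers, and 5 were lower and 0 higher both in high-risk livers and in uninvolved livers against the vehicles of their age. Adipocyte, muscle and pancreatic acinar markers were low (group medians at most 8.70, 0.849 and 5.27 CPM) except in single libraries. Muscle markers reached 168.8 CPM in TBT 7 of 3 weeks, 118 in 3-week vehicle 1, 118 in high-risk 1 and 109 in tumor 5. Adipocyte markers reached 40.01 CPM in tumor 5, 30.04 in high-risk 1 and 28.0 in tumor 12, and acinar markers 49.8 in high-risk 1.

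Of 60 other imprinted genes listed, 39 were tested between high-risk and low-risk livers, with 14 higher (35.9%) and 2 lower (5.13%). Over all genes tested 20.3% were higher and 18.5% lower. The median log2 change of the list was 0.21 beside -0.01. The most certain were Htra3 (2.05, SE 0.31), a serine protease, Sgce (0.82, SE 0.13), a membrane protein, Atp10a (2.37, SE 0.38), a lipid flippase, and Ano1 (1.51, SE 0.25), a chloride channel. In uninvolved livers against vehicles, 17 (40.5%) were higher and 10 (23.8%) lower of 42, beside 31.2% and 26.5% of all genes, so that the share of lower genes was near that of all genes. Atp10a (2.74, SE 0.35) and Osbpl5 (1.34, SE 0.17) were higher, and Copg2 (-0.70, SE 0.07) and Nap1l4 (-0.45, SE 0.06) were lower. Copg2 lies opposite to Mest and shares 912 exonic bases with it. The kit marks strand, but the strand setting of the counting is not given in the sources used here.

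Of 19 listed genes of the IGF axis, 17 were tested, with 7 higher (41.2%) and 4 lower (23.5%) in high-risk against low-risk livers, beside the 20.3% and 18.5% of all genes. In uninvolved livers against vehicles 6 were higher (35.3%) and 2 lower (11.8%), beside 31.2% and 26.5%, so that the share of higher genes was near that of all genes. Igfbp7, a secreted protein related to the IGF-binding proteins, rose in both (1.25, SE 0.18, and 1.42, SE 0.13), as did Htra1, a protease that cleaves such proteins (1.92, SE 0.29, and 2.18, SE 0.31). The receptor Igf1r rose in high-risk livers (1.11, SE 0.19) and in uninvolved livers (1.29, SE 0.22), and so did Igfbp3 (0.98, SE 0.17, and 0.72, SE 0.10). Igf2bp2, an RNA-binding protein, fell in both (-1.59, SE 0.36, and -1.48, SE 0.21). Igfbp1 rose in high-risk livers (2.26, SE 0.36) and gave 0.65 (SE 0.51, adjusted p 0.286) in uninvolved livers. Igf2r, the imprinted receptor that clears Igf2, had 104 to 161 CPM as group medians in all 9 groups.

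Of 22 regulators of imprints and of postnatal silencing, with some of their targets, 16 were tested at 5 months, of which high-risk livers had 7 higher (43.8%) and 1 lower (6.25%), beside 20.3% and 18.5% of all genes. Uhrf1, which guides maintenance DNA methylation in S phase, rose by 2.47 (SE 0.34) and the cell cycle inhibitor Cdkn1a by 2.47 (SE 0.55). Tet1, which oxidises methylcytosine, rose by 2.02 (SE 0.53) and Gpc3, a fetal liver proteoglycan, by 1.76 (SE 0.50). In uninvolved livers against vehicles 10 of 17 were higher (58.8%) and 2 lower (11.8%), beside 31.2% and 26.5%. Ctcfl (1.54, SE 0.26), Tet1 (2.20, SE 0.41) and Cdkn1a (2.70, SE 0.51) rose and Trim28, a corepressor at imprints, fell (-0.47, SE 0.09). Zhx2 and Zbtb20, known as repressors of H19 and Afp after birth, had medians of 13.7 and 169 CPM in 3-week vehicles. In tumors these were 20.4 and 270 CPM, and in vehicles of 10 months 22.1 and 226.

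The orders of the group medians differed between members. For H19 the order was TBT and vehicle at 3 weeks (384 and 252 CPM), tumor (248), high-risk (148.7), uninvolved (25.8), vehicle and low-risk at 5 months (1.67 and 1.05), low-risk and vehicle at 10 months (0.609 and 0.449). For Peg3 tumors were last (5.31). For Rian the uninvolved livers were first (3.04). Of 80 pairs of neighbours over the 10 orders, only 1 did not overlap, that of Cdkn1c between TBT at 3 weeks (median 3.74) and uninvolved liver (2.21), so no other neighbours are apart by more than their spread.

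Over the 72 samples of the 9 groups, and among 13185 genes that averaged 1 CPM or more, the genes whose levels ranked most like H19 were Cd63, Fstl1, Lpl, Vill and Nrm (Spearman rho 0.864, 0.858, 0.858, 0.845 and 0.843). Those most like Dlk1 were Cacna1c, Plxna4, Mrvi1, Speg and Map2 (rho 0.672 to 0.634). Those most like Igf2 were Zfp37, Adamts14, Emcn, Map4k1 and Msantd3 (rho 0.509 to 0.479). The samples share groups, batches and depth, and the last 2 sets of values rest on samples with a few counts or none.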

How the data were processed

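The deposited table holds whole-number counts per gene for 75 libraries. Per the submitters' processing notes, the authors used Trim Galore, HISAT2 and featureCounts with mm10, and per the name of the deposited table the counts were then adjusted for batch with ComBat-seq. The settings and the strand choice are not given in the sources used here. Libraries were made with a stranded total RNA kit, per the labels' protocols. Such an adjustment can change a low count and the spread within a batch.

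All gene identifiers matched GENCODE release 21 for mouse (GRCm38), which gave positions and exon lengths. Counts were fitted as deposited with edgeR 4.0.16 (R 4.3.3; filterByExpr, TMM, glmQLFTest), with batch as a term at 5 months, where the 3 groups shared 1 fit, as did the 3 liver groups of 10 months. The vehicle ages were compared in batch 1. Fits were tested on simulated data. The members and gene lists were chosen with earlier results of these data known. Text names all 10 members, up to 4 called genes of each other list with the lowest adjusted p, and for H19, Igf2 and Dlk1 the 5 genes of nearest rank correlation. Some named genes fall outside this rule: Igf2r, Zhx2, Zbtb20, Mirg, Rtl1 and Dio3. So do Igfbp3 and Igf2bp2 in high-risk livers, and Igf1r and Igfbp1 in uninvolved livers. Igf2 fell below the filter in every comparison and Dlk1 in all but that of risk between ages. RPKM values are these CPM divided by exon length in kilobases.

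DESeq2 1.42.0, RLE size factors, no filter, no batch term, single batches, a replicate block, and leaving out samples were tried as alternatives. Uninvolved liver and tumor share the numbers 1, 3, 5, 6, 7 and 12 in the titles. Pairs 3 and 6 were left out because their uninvolved libraries were summed. The other 4 pairs deviated together (correlations 0.162 to 0.616 over genes). In the other comparisons at least 1 pair was under 0.1.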

Additional observations from a re-analysis of the deposited data

Results flagged for a closer look

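Single samples lay far from the rest of their group. Tumor 6 was far above the other 6 tumors for Dlk1 (39.0 CPM, next 0.720), Meg3 (24.3, next 1.58) and Rian (95.7, next 3.74). Vehicle 9 of 5 months, the library with 2.83 M counts, was far above the other 7 vehicles for Igf2 and Dlk1 (2.37 CPM each, 11 counts) and for Meg3 (5.596 CPM). Among vehicles of 10 months, liver 1 was far below the others for H19 (0.120 CPM, next 0.396) and liver 2 for Rian (0.182, next 0.502). Low-risk liver 8 of 10 months was far above its group for H19 (7.51 CPM, next 0.624). Chance sets about 1 in 20 groups apart in this way, and 73 groups of 4 to 10 samples were looked at.

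The vehicle library of 10 months that is labelled as a tumor is in no comparison. It exceeded all 6 vehicles of that age for 8 members: H19 (358 CPM), Plagl1 (5.26), Meg3 (3.28), Rian (2.82), Peg3 (10.4), Grb10 (8.09), Cdkn1c (2.44) and Igf2 (0.916). It was a single library with 14.1% mitochondrial counts. Its Peg3 level was above all 7 tumors of TBT mice (highest 6.76).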

How the results depend on the processing

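Of the 192 alternatives for the counts of called members and the medians, 168 stayed within 1.5 times or 0.25 of the value above. Between high-risk and low-risk livers of 5 months, 7 called members became 1 in batch 1 alone and 3 without the 5 high-risk livers nearer to 3-week vehicles, both with fewer samples. Against vehicles of 5 months, 3 became 6 without the batch term, 1 in a fit of these 2 groups, and 0 in batch 1 alone or without those 5 livers; leaving out single high-risk livers gave 2 to 3. Of uninvolved liver against vehicle, 7 became 4 with the tumor-labelled library added to the vehicles. For vehicles of 10 against 5 months, 2 became 0 without a filter or with that library added, where H19 turned to 3.70, and 1 to 3 on leaving out single samples. DESeq2 called 3 there. The median change of members for tumor against vehicle was 2.56 without a filter, as Igf2 and Dlk1 then count, and 0.48 with that library added; against low-risk liver it was 2.58 without a filter. For tumor against uninvolved liver it turned from -0.19 to 0.37 without a filter and ranged from -0.71 (without tumor 6) to -0.059 on leaving out samples. The share of all genes called under each alternative is not given here, so these counts cannot be read against it. Unless named, the cause was not tested.

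With the mouse number as a replicate block, the paired tumors and uninvolved livers had a median change of -0.53 without mice 3 and 6. In the other comparisons the numbers do not pair the mice. There the block left 0 calls for high-risk against vehicle (Peg3 -0.24, Plagl1 -0.34, both reversed) and 1 for vehicles of 10 against 5 months, and moved no other count by over 1.5 times. High-risk and low-risk livers share no number.

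Alternatives without low-risk 24, without the 5 livers, without 5-month vehicle 6 or 9 for single members, in a fit of 2 groups, or leaving out high-risk livers were chosen after seeing the data. Depth limits Igf2, Dlk1, Meg3 and Rian most: a level of 0.1 CPM is under 5 counts in most libraries.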
